A study of Mus musculus with 8 samples.

Results

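Dactolisib, which blocks PI3K and mTOR, and Dasatinib, which blocks kinases of the Src and Abl families, were set directly against each other in granulocytic myeloid-derived suppressor cells (Gr-MDSCs). The comparison uses the 2 arrays titled as Dactolisib-treated and the 2 titled as Dasatinib-treated, that is 4 of the 8 arrays measured. The other 4, of cells given DMSO, serve for the spread and to link arrays. Titles decided the groups, because the treatment field of both Dasatinib arrays reads Dactolisib. All cells came from prostate tumors of male CPPSML mice aged 12 to 16 weeks, which carry PB-Cre+ with PtenL/L, p53L/L and Smad4L/L, and the reporters mTmGL/+ and LSL-LucL/+. Every mouse had been castrated at 8 to 12 weeks of age, when tumors reached 150 mm3, and then fed enzalutamide for 4 weeks. The probasin promoter drives Cre in prostate epithelium, so the deletions belong to the tumor cells and not to the Gr-MDSCs. The Gr-MDSCs were isolated by magnetic sorting and received 0.1 uM of a drug, or DMSO, for 6 h directly afterwards. No source used here says whether replicates came from separate mice or cultures or whether mice were pooled. The p-values therefore reflect only how these arrays vary among themselves, which may be technical variation, and the small number of arrays limits their precision.

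PI3K and mTOR pass growth factor and nutrient signals to protein synthesis, ribosome production, mitochondrial biogenesis and autophagy, and they hold FoxO transcription factors out of the nucleus through Akt. Src-family and Abl-family kinases relay integrin, Fc receptor and cytokine signals in neutrophils and their relatives, and Dasatinib also binds some other kinases, p38 among them. Gr-MDSCs are neutrophil-like cells of tumor-bearing hosts that hold back T cells, and both signaling routes act in them.

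By their own correlations the 8 arrays fell into 3 sets that do not follow the treatments. Set A held Dactolisib 1, DMSO 2 and DMSO 4, set B held Dactolisib 2, Dasatinib 2 and DMSO 3, and set C held Dasatinib 1 and DMSO 5. The mean log2 signal over all tested probe sets of the epithelial and luminal marker genes was lowest in set B (6.16 to 6.31). It was intermediate in set A (7.69 to 7.82) and highest in set C (9.69 to 9.71). Granulocyte markers were abundant on every array, with a summed log2 signal of 16.1 to 16.55 over 22 genes. The summed epithelial markers, over 23 genes, ran from 11.4 to 16.02. Dasatinib 1 and DMSO 5 also carried seminal vesicle transcripts, at summed log2 signals of 12.51 and 14.48 against 5.45 to 5.65 elsewhere. S100a9, a defining granulocyte gene, was between 13.69 and 14.12 (log2) on all arrays, while Ly6g had no value of its own among the tested genes. In bulk RNA, more cells of a type and more RNA per cell cannot be told apart. RNA quality was even, with 3' minus 5' control differences of -0.19 to -0.04 for Gapdh and 0.03 to 0.15 for Actb (log2). Because only set B contains both drugs, some differences, mostly medians of gene lists, are also given from 2 separate groups of arrays: the pair, Dactolisib 2 minus Dasatinib 2, and the crossing estimate, in which Dactolisib 1 minus the mean of DMSO 2 and 4 is set against Dasatinib 1 minus DMSO 5. Every difference is log2, Dactolisib minus Dasatinib, so a negative value means less RNA with Dactolisib. A gene with a single difference has it from the fit within sets, with its standard error, unless another fit is named. In that fit the DMSO arrays enter the difference itself, with weights of 0.3462 (DMSO 5), -0.1923 each (DMSO 2 and 4) and 0.0385 (DMSO 3). Dactolisib 1 and 2 had weights of 0.3846 and 0.6154, and Dasatinib 1 and 2 had -0.3462 and -0.6538. In the fit without a block only the drug arrays form the difference. Where levels are set against each other, replicates 1 and 2 of Dactolisib come first and those of Dasatinib second.

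No probe set separated the 2 drugs after adjustment for multiple tests. Limma without a block on the sets called 0 of 30024 probe sets higher (0.0%) and 0 lower (0.0%) at an adjusted p under 0.05, with 459 (1.53%) and 633 (2.11%) at an unadjusted p under 0.05. With the set as a block the calls were again 0 and 0, and 1606 probe sets (5.35%) were higher and 2681 (8.93%) lower at an unadjusted p under 0.05. Counted by the brightest probe set of each of 14237 genes, the unadjusted counts without a block were 205 higher (1.44%) and 341 lower (2.4%), and the fit within sets had 722 genes higher (5.07%) and 1393 lower (9.78%) at that level. Both Dactolisib arrays lay above both Dasatinib arrays on 2654 genes (18.6%) and below them on 2190 (15.4%). In the pair, 72 genes (0.506%) were over 1.5 fold higher and 207 (1.45%) over 1.5 fold lower with Dactolisib. Of those, 55 and 163 had the same sign in the crossing estimate, and 29 and 76 were past 1.5 fold there too. Across all genes the 2 estimates correlated with r = 0.293, 3929 genes (27.6%) being higher in both and 4603 (32.3%) lower in both. These are descriptions across genes, which are not independent replicates. Because set C holds only Dasatinib 1 and DMSO 5, leaving out either makes Dasatinib 2 the only Dasatinib array behind a value within sets. Such a value then rests on set B and, through the DMSO arrays, on Dactolisib 1. Leaving out Dactolisib 2 or Dasatinib 2 leaves no set with both drugs. A value within sets then compares the drugs only through the DMSO arrays. List medians within 0.05 of 0 are given below without a direction, since most of them changed sign under some alternative. All lists were drawn up with earlier results of these data known, so their shares beside those of all genes are descriptions.

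**Figure D1:**
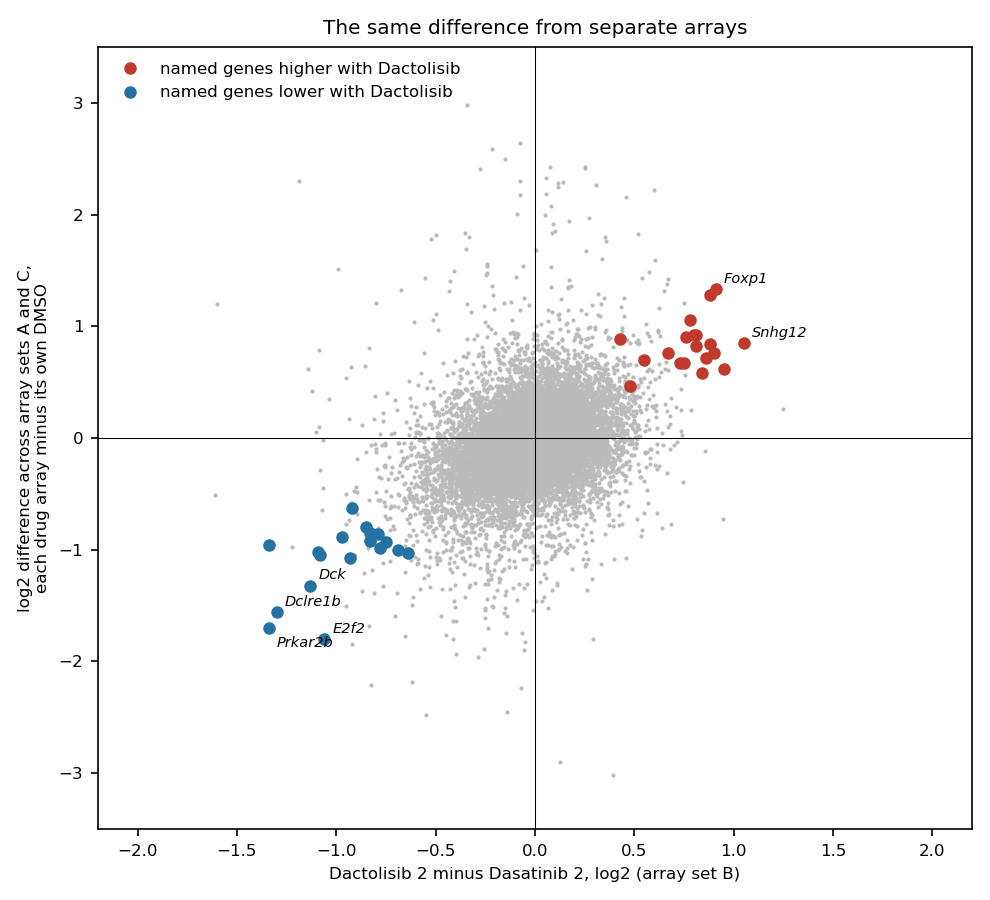
Log2 difference between Dactolisib and Dasatinib of each of 14237 genes (gray; 3 lie outside the axes) in the pair of set B (x axis) and across sets A and C, each drug array less its own DMSO (y axis). The 19 named genes higher and 18 lower with Dactolisib share their sign in both, with Prkar2b at -1.34 and -1.7 and Foxp1 at 0.91 and 1.33.

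The genes named next have the lowest p in either fit, and those taken from the fit within sets were also required to have 1 sign in both fits and both estimates, so their sizes and shared signs come from the choice itself and are a description. Within sets the 30 chosen there (15 in each direction) all had an adjusted p of 0.0788 in limma, the lowest of that fit, so no difference of a single gene below passed 0.05. Of the 37 genes named by both fits, 27 had Dactolisib and Dasatinib arrays that did not overlap. Among all genes 18.6% had both Dactolisib arrays above and 15.4% below, and a choice by lowest p favors such genes. On 33 of the 37, Dactolisib was the drug further from DMSO in set B, and it was the drug further from its own DMSO in the other sets for 33 as well. The exceptions in both counts were Cpne8, Bgn, Ociad2 and Phf11d, on which Dasatinib lay further from DMSO. The matching shares over all genes were not computed, so these counts describe the chosen genes only.

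Prkar2b, which holds protein kinase A inactive until cAMP rises, had the lowest p of the named genes without a block (5.52e-05, adjusted p = 0.841, limma). Its log2 signal was 6.64 and 6.54 with Dactolisib, 8.23 and 7.89 with Dasatinib, and 8.01, 8.02, 8.34 and 8.07 on DMSO 2 to 5. The Dasatinib arrays thus sat close to the DMSO arrays, and both Dactolisib arrays sat below all 6 others. The difference was -1.47 ± 0.17 (SE) without a block and -1.47 ± 0.15 within sets, and the other 2 probe sets of the gene gave -1.52 and -1.06. Prkaca, a catalytic subunit of that kinase, read 6.24 and 5.26 with Dactolisib, 6.7 and 6.33 with Dasatinib, and 6.82, 6.16, 6.84 and 6.85 with DMSO, a difference of -0.84 ± 0.14 within sets. Among the 29 genes of the protein kinase A and cAMP list, 2 (6.9%) were higher and 3 (10.3%) lower at an unadjusted p under 0.05, near the 5.07% and 9.78% of all genes. The list's median was 0.05 within sets and -0.02 without a block, against -0.01 and 0.03 for all genes.

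Deoxycytidine kinase, Dck, which salvages deoxynucleosides, showed the same arrangement. Its log2 signal was 8.08 and 8.18 with Dactolisib, 9.58 and 9.31 with Dasatinib, and 9.12 to 9.54 with DMSO. The Dactolisib arrays were the lowest 2 of the 8, with a difference of -1.32 ± 0.18 without a block and -1.2 ± 0.16 within sets, and the other probe sets gave -1.2 and -0.94. The nucleotide synthesis and salvage list as a whole, Dck included, had a median of -0.02 over 37 genes, with 1 gene (2.7%) higher and 4 (10.8%) lower at an unadjusted p under 0.05, against 5.07% and 9.78% of all genes, and -0.14 without a block. Mfsd14a, a transporter-like membrane protein, was 8.32 and 8.48 against 9.37 and 9.17 (difference without a block -0.87 ± 0.15). Trappc13, of the TRAPP vesicle tethering complex, was 4.97 and 4.79 against 5.8 and 5.59 (without a block -0.81 ± 0.14). Srek1ip1, a partner of a splicing regulator, was 5.07 and 5.02 against 5.92 and 5.66 (without a block -0.74 ± 0.14). On these 3 genes the DMSO arrays, at 9.0 to 9.32, 5.39 to 5.64 and 5.62 to 5.85, lay nearer to Dasatinib than to Dactolisib.

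**Figure D2:**
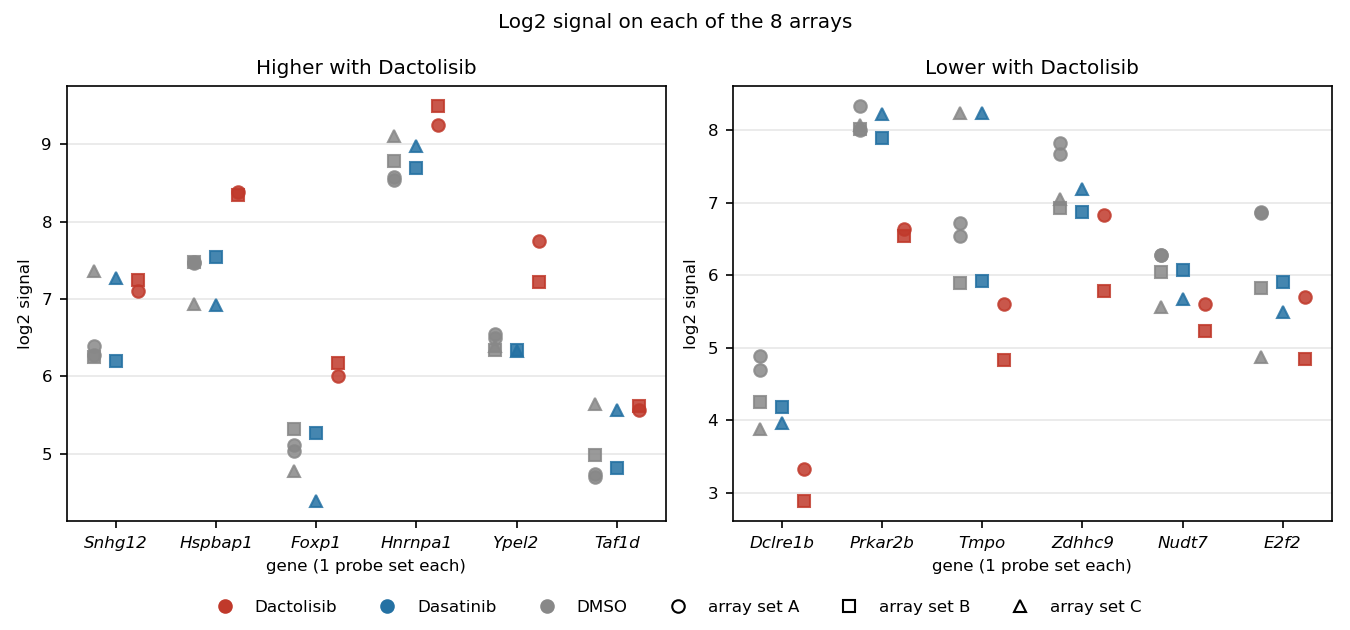
Log2 signal of the 6 genes with the lowest p within array sets in each direction, on all 8 arrays; color gives the treatment and marker shape the array set. Prkar2b, Ypel2 and Hspbap1 keep the drugs apart across sets, while on Snhg12 and Taf1d the Dasatinib array of set C lies level with Dactolisib and near its own DMSO array.

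To show the sequence in front of the named genes, the stretch from 250 bases before to 50 after each start in RefSeq (GRCm38.p6) was searched on both strands for 3 motifs. The forkhead motif GTAAACA and the estrogen-related receptor motif AAGGTCA occurred in 0 of 21 promoters of 18 higher genes and 0 of 25 promoters of 17 lower genes, against 2.85% and 3.59% of 14425 promoters of tested genes. The E-box CACGTG, which reads the same on both strands, was in 1 promoter of the higher genes (4.76%) and 2 of the lower genes (8.0%), against 9.28% of all. Counted by gene, the E-box was before 1 of 18 higher genes (5.56%) and 2 of 17 lower genes (11.8%), against 1253 of all 11369 genes with a promoter. These are few promoters, and a missing match says only that these letters are not in the window. The 4 matches before a start are printed 5' to 3' on the gene's strand, with the E-box in capitals and 20 bases on either side, to show which of the named genes hold one. They lie at chr16:35770274-35770319 and chr16:35770340-35770385 (Hspbap1, plus strand), chr12:32061332-32061377 (Prkar2b, minus strand) and chr7:66109354-66109399 (Chsy1, plus strand).
Hspbap1, first: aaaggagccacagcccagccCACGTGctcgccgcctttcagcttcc
Hspbap1, second: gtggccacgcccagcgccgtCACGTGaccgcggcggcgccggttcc
Prkar2b: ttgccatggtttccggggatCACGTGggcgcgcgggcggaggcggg
Chsy1: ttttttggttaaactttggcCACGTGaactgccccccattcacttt
The 2 matches of Hspbap1 end 87 and 21 bases before its start, that of Prkar2b 75 bases and that of Chsy1 113 bases. A match of letters is a description and shows no binding.

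Among FoxO targets and genes that feed back on PI3K, more members were higher than lower with Dactolisib. That list, Ypel2 included, was drawn up with earlier results of these data known, so its shares are a description. Of 50 measured, 14 (28.0%) were higher and 6 (12.0%) lower within sets at an unadjusted p under 0.05, against 5.07% and 9.78% of all genes, yet the median was 0.08 within sets (0.24 without a block) and the pair alone gave 0.02. Ypel2, of the yippee-like family, was 7.75 and 7.22 with Dactolisib against 6.33 and 6.34 with Dasatinib and 6.34 to 6.55 with DMSO. That is 1.15 ± 0.19 without a block and 1.03 ± 0.13 within sets, and the gene's other probe set gave 1.1. The forkhead factor Foxp1 read 6.01 and 6.17 with Dactolisib, 4.38 and 5.27 with Dasatinib and 5.03, 5.32, 5.11 and 4.77 with DMSO. Its groups did not overlap, the difference was 1.06 ± 0.13 within sets, and all 7 other probe sets were positive at 0.3 to 0.59, the brightest of them, which stands for the gene in the list, at 0.43 ± 0.16. Members named after their values were seen include Irs2, the insulin receptor substrate (0.45 ± 0.12), Pik3ip1, an inhibitor of PI3K (0.58 ± 0.2), and the proapoptotic Bbc3 (0.35 ± 0.1). The other 3 members named by rule were lower with Dactolisib: cyclin G1 (Ccng1) at -0.63 ± 0.12, catalase (Cat) at -0.54 ± 0.12 and the repressor Bcl6 at -0.46 ± 0.11. Without Dasatinib 1 or DMSO 5 the list's median was 0.05, so the shift of the whole list was small and uneven between arrays.

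RNA of the drug targets themselves had medians within sets close to that of all genes. The median over 59 PI3K, Akt and mTOR components was 0.03 within sets and 0.12 without a block. At an unadjusted p under 0.05 within sets 5 (8.47%) were higher and 12 (20.3%) lower, against 5.07% and 9.78% of all genes, and 20 members were higher and 20 lower in both estimates (33.9% each, against 27.6% and 32.3%). Rragc, a Rag GTPase that brings mTORC1 to lysosomes, was 11.49 and 11.55 with Dactolisib, 10.7 and 11.15 with Dasatinib and 10.71 to 11.19 with DMSO (0.48 ± 0.11). Lamtor2, of the Ragulator scaffold for the same GTPases, was 7.0 and 6.99 against 7.74 and 7.5, below all DMSO arrays at 7.5 to 7.93 (-0.46 ± 0.11). Thus a GTPase and its scaffold pointed in opposite directions. Pdpk1, the kinase that activates Akt, differed by 0.44 ± 0.11. Pik3cg, a PI3K catalytic subunit of leukocytes, had overlapping arrays. It differed by -0.41 ± 0.1 within sets and, with the opposite sign, by 0.53 ± 0.69 without a block. Mtor itself was at 7.31 and 7.26 against 7.34 and 7.29 (-0.03 ± 0.1), less than its standard error.

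For the 37 Src and Abl family kinases and other Dasatinib targets the median was -0.03, with 2 (5.41%) higher and 5 (13.5%) lower at an unadjusted p under 0.05, against 5.07% and 9.78% of all genes, and 0.03 without a block. Mapk14, which encodes p38 alpha, was 8.2 and 7.4 with Dactolisib, 8.32 and 8.37 with Dasatinib and 9.18, 8.27, 9.35 and 8.49 with DMSO. The drug arrays did not overlap, though Dactolisib 1 and Dasatinib 1 were close, and each Dactolisib array lay below the DMSO arrays of its set. The difference was -0.95 ± 0.12 within sets and -0.55 ± 0.41 without a block, and 1 of the 5 other probe sets had the opposite sign, at 0.13. Sik1, a salt-inducible kinase, was 7.11 and 7.34 against 6.38 and 6.85 (0.64 ± 0.13), and the adaptor Gab2 was 10.45 and 10.55 against 9.65 and 10.04 (0.5 ± 0.11). Csk, the kinase that restrains Src, differed by -0.51 ± 0.12 within sets and 0.06 ± 0.43 without a block. Src (-0.04 ± 0.18) and Abl1 (0.06 ± 0.12) differed by less than their standard errors.

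Of the named genes higher with Dactolisib, 4 host small nucleolar RNAs (Snhg12, Snhg1, Zfas1 and Taf1d) and 2 encode RNA-binding proteins (Hnrnpa1 and Hnrnpdl), a grouping made after their values were seen. Snhg12 read 7.1 and 7.25 with Dactolisib, 7.27 and 6.2 with Dasatinib, and 6.28, 6.25, 6.39 and 7.36 with DMSO. Dasatinib 1 was thus as high as Dactolisib, but so was DMSO 5 of the same set, and the difference was 0.97 ± 0.11 within sets against 0.44 ± 0.46 without a block. Snhg1 was arranged likewise (0.75 ± 0.11 and 0.03 ± 0.65), as was Taf1d, a subunit of an RNA polymerase I factor whose introns hold small nucleolar RNAs (0.85 ± 0.11 and 0.4 ± 0.36). One of the 4 other Taf1d probe sets was negative, at -0.2. Zfas1, another such host, kept the drugs apart at 8.7 and 8.94 against 8.12 and 8.21, with DMSO at 8.03 to 8.37 (0.71 ± 0.1). So did the splicing regulators Hnrnpa1, at 9.25 and 9.5 against 8.98 and 8.69 (0.81 ± 0.1), and Hnrnpdl, at 9.78 and 9.72 against 9.14 and 8.98 (0.73 ± 0.11). For Hnrnpdl the DMSO arrays spanned only 9.0 to 9.11, and 5 of 6 other probe sets shared the sign.

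The proteasome, which degrades ubiquitin-tagged proteins, was lower with Dactolisib across most of its subunits. Of 46 genes measured, 40 (87.0%) were lower in both estimates and 2 higher, against 32.3% and 27.6% of all genes. Both Dactolisib arrays lay under both Dasatinib arrays for 34 (73.9%, against 15.4% of all genes), and 21 (45.7%) were lower at an unadjusted p under 0.05 within sets, none higher. The mean log2 signal of the 46 genes was 8.47 and 8.49 with Dactolisib, 9.2 and 8.71 with Dasatinib, and 8.75, 8.81, 8.71 and 9.09 with DMSO 2 to 5. Both Dactolisib arrays were therefore the lowest of the 8. The median difference was -0.27 within sets, -0.22 in the pair and -0.33 in the crossing estimate. Psmb5, the catalytic subunit with chymotrypsin-like activity, read 9.8 and 10.09 with Dactolisib, 10.71 and 10.73 with Dasatinib and 10.51 to 10.81 with DMSO, and differed by -0.68 ± 0.1 within sets and -0.77 ± 0.15 without a block. Psmd5, an assembly chaperone, was 6.76 and 6.43 against 7.64 and 7.19 (-0.69 ± 0.12), and the core subunits Psma1 and Psma5 differed by -0.52 ± 0.1 and -0.51 ± 0.11. The median without a block was -0.51, and -0.22 without Dasatinib 1, the array of set C, or -0.78 without Dasatinib 2. Epithelial markers lay in the same direction: 11 of 23 were lower and 1 higher in both estimates (47.8% and 4.35%), their median was -0.21 within sets and -1.15 without a block, and their summed log2 signal was 13.51 and 11.4 with Dactolisib, 16.02 and 11.63 with Dasatinib, and 13.7, 11.59, 13.64 and 15.96 with DMSO. Their part in the proteasome, mitochondrial and other lower lists was not tested. With the epithelial marker mean as a covariate the proteasome median was -0.35. In the pair of set B, where epithelial RNA was lowest, the proteasome median was -0.22 and the epithelial marker median was -0.18.

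Genes of the mitochondrial respiratory chain and of mitochondrial translation also lay lower with Dactolisib. Of 32 subunits of complex I, which takes electrons from NADH, 22 (68.8%) were lower in both estimates and 1 higher, against 32.3% and 27.6% of all genes, and 13 (40.6%, against 9.78%) were lower at an unadjusted p under 0.05. The mean log2 signal of the 32 was 8.21 and 7.93 with Dactolisib, 8.83 and 8.25 with Dasatinib, and 8.52, 8.32, 8.44 and 8.96 with DMSO, so Dactolisib 1 and Dasatinib 2 differed little and each Dactolisib array was below the DMSO arrays of its set. The median difference was -0.25 within sets, -0.35 in the pair and -0.14 in the crossing estimate, and it was -0.17 without Dactolisib 2 and -0.43 without a block. Ndufa13 was 9.05 and 8.94 against 9.83 and 9.45, with DMSO at 9.49 to 9.88 (-0.48 ± 0.1). Ndufb7 was 8.72 and 8.7 against 9.15 and 9.12, with DMSO at 9.19 to 9.36 (-0.48 ± 0.1).

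The 40 genes of complexes II to V and cytochrome c had a median of -0.17 within sets, -0.24 in the pair and -0.03 in the crossing estimate, so the pair carried most of it. Without Dasatinib 2 the median was -0.07, without Dactolisib 2 it was -0.1, and without a block it was -0.33. Uqcr11, a small subunit of complex III, was 6.88 and 6.42 with Dactolisib, 8.32 and 7.34 with Dasatinib and 7.72, 7.34, 7.65 and 8.49 with DMSO (-0.82 ± 0.11). Of 75 mitochondrial ribosomal protein genes 51 (68.0%, against 32.3% of all genes) were lower in both estimates and 32 (42.7%, against 9.78%) at an unadjusted p under 0.05. Their median was -0.21 within sets and -0.35 without a block. Mrpl22 was 5.57 and 5.58 against 7.27 and 6.24, with DMSO at 6.32 to 7.21 (-0.77 ± 0.11). The 60 import and assembly factors had a median of -0.14 (-0.21 without a block) and 31 lower in both (51.7%, against 32.3% of all genes), for example Coa6, an assembly factor of cytochrome c oxidase, at -0.59 ± 0.1. The 26 genes of the TCA cycle and pyruvate entry gave -0.1 within sets, but 0.02 in the crossing estimate, 0.03 without Dasatinib 2 and -0.43 without a block.

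**Figure D3:**
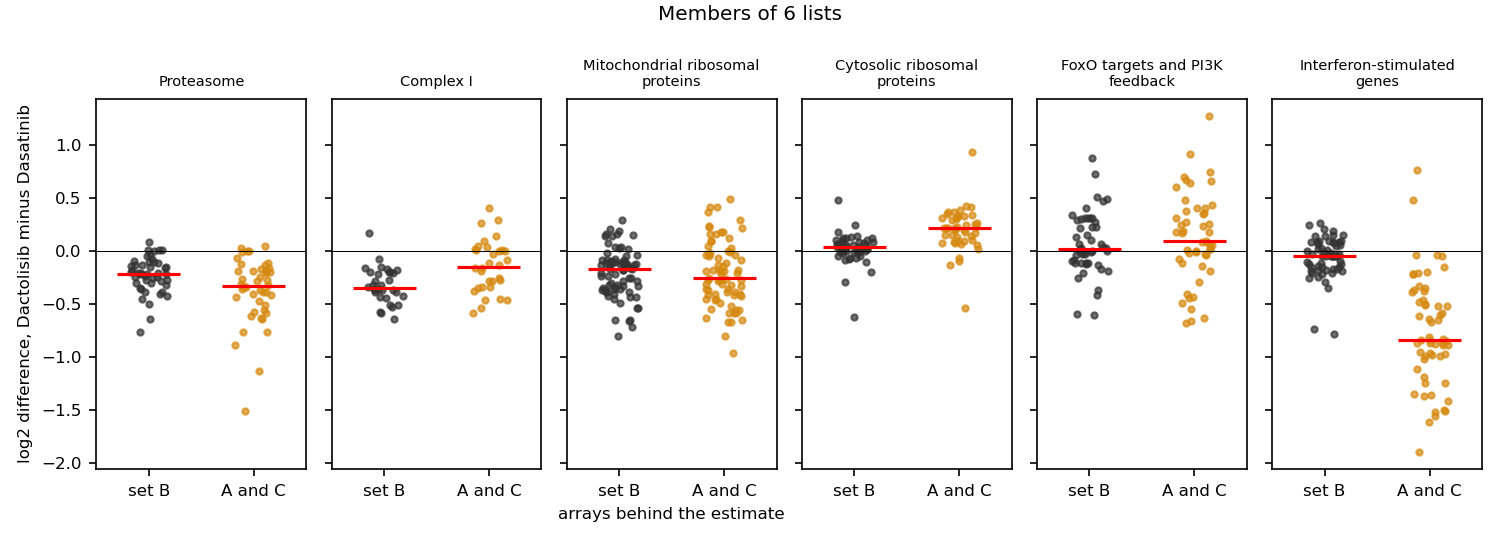
Log2 difference between Dactolisib and Dasatinib of each measured gene of 6 lists, from the pair in set B (black) and across sets A and C (orange), with the median as a red line. Most proteasome, complex I and mitochondrial ribosomal genes lie below 0 in both, cytosolic ribosomal genes lie slightly above 0, and interferon-stimulated genes lie far below 0 only across sets A and C.

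Ribosomes of the cytosol went differently from those of mitochondria. Of 45 cytosolic ribosomal protein genes, 31 (68.9%) were higher in both estimates and 4 lower (8.89%), against 27.6% and 32.3% of all genes, with a median of 0.1 within sets, 0.04 in the pair and 0.22 in the crossing estimate. That shift was small and hung on single arrays: without Dasatinib 1 or DMSO 5 it was 0.02, without Dasatinib 2 it was 0.22, and without a block the median was -0.12. The mean log2 signal of the 45 was 10.51 and 10.12 with Dactolisib, 10.77 and 10.1 with Dasatinib and 10.49, 10.06, 10.5 and 10.96 with DMSO. Values of the 2 drugs overlapped here, and the Dasatinib array of set C lay below its DMSO array. Rps27l, a ribosomal protein paralog and p53 target, had the opposite sign, at -0.59 ± 0.11. Probes of ribosomal protein genes can also bind transcripts of paralogs and pseudogenes, so single values are uncertain.

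The factors that build ribosomes were lower. Of 79 ribosome biogenesis genes 47 (59.5%, against 32.3% of all genes) were lower in both estimates and 39 (49.4%, against 15.4%) had both Dactolisib arrays under both Dasatinib arrays. At an unadjusted p under 0.05 within sets 18 (22.8%, against 9.78%) were lower. The median was -0.12 within sets, -0.08 in the pair and -0.5 without a block. The list's mean log2 signal was 7.42 on Dasatinib 1 and 7.38 on DMSO 5, both of set C, against 6.46 to 6.63 on the other arrays. Utp6, of the small subunit processome, was 6.09 and 6.13 against 7.02 and 6.55, with DMSO at 6.64 to 6.78 (-0.55 ± 0.12), and the helicase Ddx18 was 5.9 and 5.63 against 7.22 and 6.03 (-0.44 ± 0.1). The 22 cytosolic tRNA synthetases had a median of -0.18 with 14 lower in both (63.6%, against 32.3% of all genes), but -0.1 without Dactolisib 2 or with 32 added before log2, -0.05 in the crossing estimate and -0.45 without a block. The median over 41 translation factors was -0.02, and -0.23 without a block. Eif4a2, an RNA helicase, was 0.35 ± 0.1 and Eif5a, which helps ribosomes past difficult peptides, -0.34 ± 0.1.

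Protein folding in the endoplasmic reticulum and antioxidant defense shared the lower direction. Of 56 folding and unfolded protein response genes 29 (51.8%, against 32.3% of all genes) were lower in both estimates and 30 (53.6%, against 15.4%) had both Dactolisib arrays under both Dasatinib arrays. At an unadjusted p under 0.05 within sets 11 (19.6%, against 9.78%) were lower. The median was -0.12 within sets, -0.18 in the pair, -0.08 in the crossing estimate and -0.32 without a block. The list's mean log2 signal was 9.0 on Dasatinib 1 and 9.08 on DMSO 5, both of set C, against 8.45 to 8.71 on the other arrays. Rpn1 of the oligosaccharyltransferase was 7.4 and 6.84 with Dactolisib, 9.45 and 7.75 with Dasatinib and 7.84 to 9.58 with DMSO (-0.79 ± 0.12), and Ostc of the same complex was 8.53 and 8.43 against 8.92 and 8.92 (-0.5 ± 0.1). Of 31 antioxidant enzymes 20 (64.5%) were lower in both and 3 higher, against 32.3% and 27.6% of all genes, with a median of -0.18 within sets and -0.47 without a block. Srxn1, sulfiredoxin, was 9.13 and 9.66 against 10.6 and 10.22 with DMSO at 9.7 to 10.46 (-0.63 ± 0.11). Gpx1, glutathione peroxidase, had overlapping arrays and differed by -0.55 ± 0.1 within sets and -0.15 ± 0.45 without a block. Ptgr1, a reductase induced by Nrf2, was 6.91 and 7.38 against 10.37 and 8.6 (-1.13 ± 0.22).

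Lysosome and autophagy genes had members in both directions. Of 74 lysosome and autophagy genes 11 (14.9%) were higher and 3 (4.05%) lower at an unadjusted p under 0.05, against 5.07% and 9.78% of all genes. The median was 0.02 within sets and 0.15 without a block. In both estimates 31 (41.9%) were higher and 25 (33.8%) lower, against 27.6% and 32.3% of all genes, so the lower share was near that of all genes. Ulk1, the kinase that starts autophagy, was 9.41 and 9.2 with Dactolisib, 8.03 and 8.74 with Dasatinib, and 8.69, 8.68, 8.79 and 8.23 with DMSO, a difference of 0.61 ± 0.12. Gabarapl1, which coats autophagosomes, had overlapping arrays at 9.91 and 10.42 against 10.02 and 10.11, with 0.44 ± 0.13 within sets and 0.1 ± 0.31 without a block. Of the members named by the rule, acid lipase Lipa (-0.6 ± 0.18) and the lysosomal membrane protein Scarb2 (-0.33 ± 0.1) were negative within sets. Scarb2 had overlapping arrays and differed by 0.09 ± 0.32 without a block. ATF4 targets and amino acid supply genes had a median of 0.07 over 38 within sets, and of the opposite sign, -0.18, without a block. At an unadjusted p under 0.05 within sets 5 (13.2%) were higher and 1 (2.63%) lower, against 5.07% and 9.78% of all genes, whereas both Dactolisib arrays lay above Dasatinib for 3 (7.89%) and below for 7 (18.4%), against 18.6% and 15.4%. The median within sets was 0.03 without Dasatinib 1 or DMSO 5 and 0.16 without Dasatinib 2. Ddit3, the stress factor CHOP, was 11.29 and 11.39 against 10.3 and 10.89 (0.46 ± 0.12), and Atf4 itself was 0.37 ± 0.1 with overlapping arrays.

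**Figure D4:**
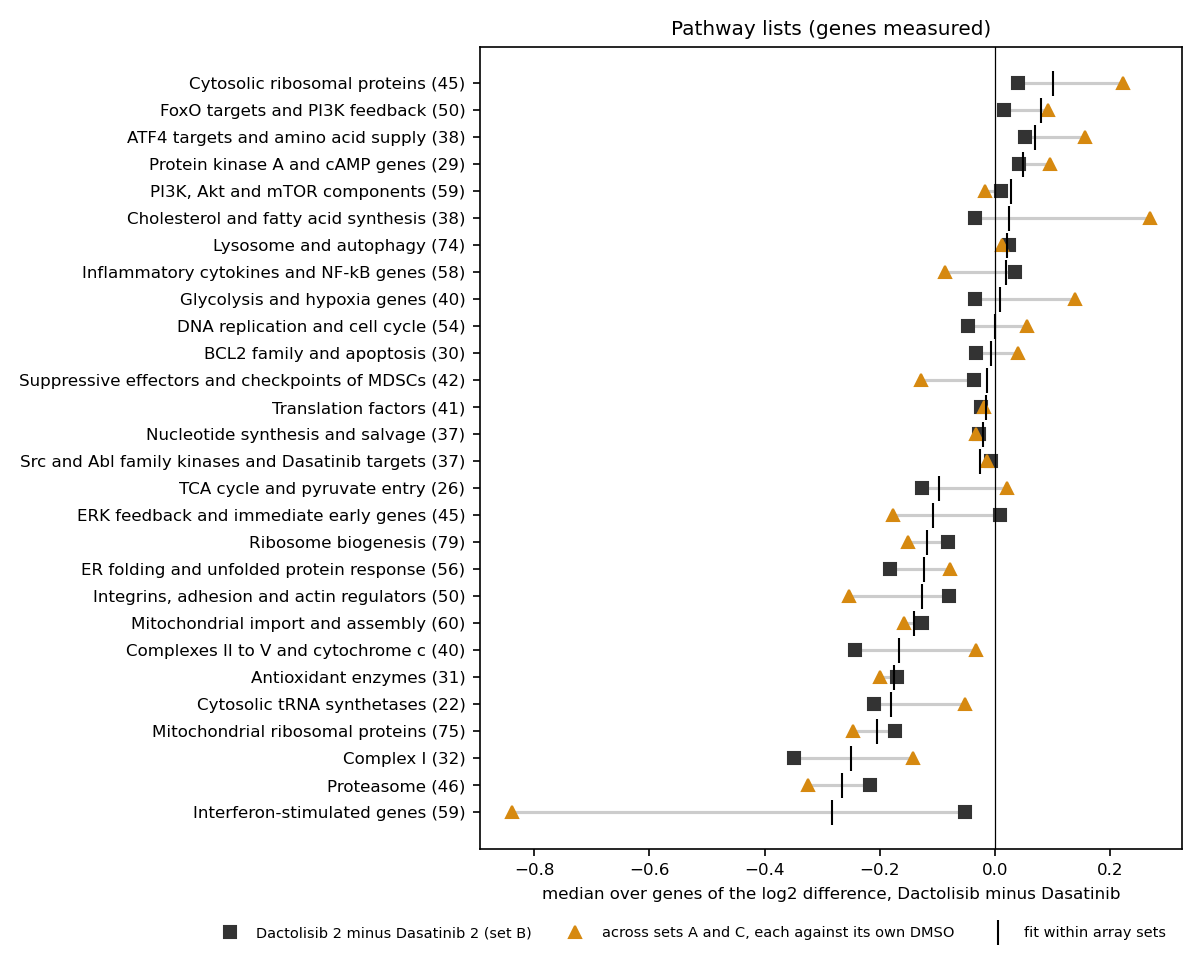
Median log2 difference between Dactolisib and Dasatinib over the measured genes of 28 pathway lists (number of genes in brackets), in the pair of set B (squares), across sets A and C (triangles) and in the fit within sets (vertical ticks). The proteasome (-0.27) and complex I (-0.25) are low in both estimates, and the interferon-stimulated genes show the widest gap between the estimates, -0.05 and -0.84.

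Metabolic lists outside the mitochondrion had medians near 0 within sets, which single arrays moved. Mvd, which makes isopentenyl diphosphate in the mevalonate pathway, was 8.27 and 8.5 with Dactolisib, 6.82 and 7.6 with Dasatinib and 7.3, 7.69, 7.18 and 6.56 with DMSO (0.86 ± 0.13), and its other probe set gave 0.84. Msmo1, a later enzyme of cholesterol synthesis, was -0.49 ± 0.12, and the median of the 38 cholesterol and fatty acid genes was 0.03. It was -0.03 without Dasatinib 1 or DMSO 5, 0.26 without Dasatinib 2, 0.27 in the crossing estimate and -0.05 without a block. Over 40 glycolysis and hypoxia genes the median was 0.01, but -0.03 without Dasatinib 1 or DMSO 5, 0.13 without Dactolisib 2, 0.16 without Dasatinib 2 and 0.18 without a block. The pentose phosphate enzymes Taldo1 (12.02 and 12.09 against 12.59 and 12.42, -0.4 ± 0.12) and Pgd (12.17 and 12.21 against 12.79 and 12.57, -0.42 ± 0.12) were both below all 4 DMSO arrays with Dactolisib.

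Over 54 genes of DNA replication and the cell cycle the median was 0.0, with opposed members. Outside that list, Dclre1b, the telomere nuclease Apollo, had the lowest p of the named genes within sets (2.89e-06) and read 3.33 and 2.88 with Dactolisib, 3.97 and 4.18 with Dasatinib and 4.69, 4.25, 4.89 and 3.88 with DMSO. The 2 Dactolisib arrays were the lowest of the 8 and the difference was -1.4 ± 0.12, but the signal is dim: with 32 added before log2 it was -0.42, and the brighter probe set gave -0.34. E2f2, an S-phase transcription factor, was 5.7 and 4.85 against 5.5 and 5.91, with DMSO at 6.88, 5.82, 6.86 and 4.87, so the drugs overlapped and the difference was -1.32 ± 0.16 within sets and -0.43 ± 0.68 without. Cyclin D2 (Ccnd2) was 7.54 and 7.52 against 8.3 and 8.11 (-0.78 ± 0.17). The replication factors Mcm10 (0.71 ± 0.1) and Mcm7, a helicase subunit at 9.21 and 8.96 against 8.65 and 8.32 (0.62 ± 0.11), were positive.

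Adhesion genes, downstream of integrins and Src kinases in leukocytes, were lower with Dactolisib within sets. Of 50 integrin, adhesion and actin genes 30 (60.0%, against 32.3% of all genes) were lower in both estimates, and 14 (28.0%) were lower and 1 (2.0%) higher at an unadjusted p under 0.05, against 9.78% and 5.07%. Arrays that did not overlap ran the other way, with 12 genes (24.0%) higher and 4 (8.0%) lower, against 18.6% and 15.4% of all genes. The median was -0.13 within sets. It was -0.25 without Dasatinib 2, -0.19 without Dactolisib 2 and -0.08 without Dasatinib 1 or DMSO 5, and without a block it was 0.1, the opposite sign. Fermt3, kindlin-3, which activates integrins, was 9.36 and 9.59 with Dactolisib, 10.27 and 10.2 with Dasatinib and 10.0 to 10.72 with DMSO (-0.91 ± 0.2), and its drug arrays did not overlap. Was (-0.75 ± 0.16) and the integrin Itgal (-0.56 ± 0.15) had overlapping arrays, and without a block they gave -0.08 ± 0.51 and -0.07 ± 0.43. For 45 ERK feedback and immediate early genes the median was -0.11, but 0.03 without Dasatinib 1 or DMSO 5, -0.25 without Dasatinib 2 and -0.2 without a block. Dusp6, the phosphatase that shuts off ERK, was 9.77 and 9.1 against 9.76 and 9.96, with DMSO at 10.58, 10.04, 10.46 and 9.29 (-0.97 ± 0.15 within sets, -0.42 ± 0.43 without).

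Genes through which Gr-MDSCs act on T cells had a median of -0.01 over 42 within sets, 0.23 without a block and -0.16 within sets without Dasatinib 2. At an unadjusted p under 0.05 within sets 3 (7.14%) were higher and 5 (11.9%) lower, near the 5.07% and 9.78% of all genes, while both Dactolisib arrays lay above Dasatinib for 10 (23.8%) and below for 2 (4.76%), against 18.6% and 15.4%. The 30 genes of the BCL2 family and apoptosis had a median of -0.01 within sets and 0.12 without a block. The calprotectin genes S100a8 (-0.01 ± 0.11) and S100a9 (0.04 ± 0.12) differed by less than their standard errors, and Arg1 was 12.38 and 7.93 against 9.39 and 8.05, following the array sets (-0.09 ± 0.11 within sets, 1.43 ± 1.88 without). Mmp9, a protease of neutrophil granules, was 10.89 and 10.69 with Dactolisib, 10.42 and 11.19 with Dasatinib and 11.6, 11.25, 11.5 and 10.21 with DMSO. It differed by -0.64 ± 0.12 within sets and -0.02 ± 0.48 without, and the chemokine receptor Cxcr2 by -0.63 ± 0.17 and -0.03 ± 0.47. The 22 granulocyte markers together had a median of -0.01 (0.24 without a block). The 20 monocyte and macrophage markers had -0.2, with 12 lower in both estimates and 1 higher (60.0% and 5.0%, against 32.3% and 27.6% of all genes), and -0.33 without Dasatinib 2 and -0.34 without a block. The summed log2 signal of the monocyte and macrophage markers ran from 14.18 to 14.47 over the arrays. Cx3cr1, a chemokine receptor of monocytes, was 6.04 and 5.6 against 6.14 and 6.44 (-0.88 ± 0.12). The part of monocytes and macrophages in the other results was not tested.

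Interferon-stimulated genes, which respond to viral and inflammatory signals, differed mostly on 1 Dasatinib array. Of 59, none was higher in both estimates and 35 (59.3%, against 32.3% of all genes) were lower, with a median of -0.28, but the pair gave -0.05 and the crossing estimate -0.84. Their median was 0.84 above DMSO 5 on Dasatinib 1 and 0.0 above DMSO 3 on Dasatinib 2, and without Dasatinib 1 or DMSO 5 the difference was -0.01, against -0.87 without Dasatinib 2. Phf11d, an interferon-induced finger protein, was 7.29 and 5.58 with Dactolisib, 8.97 and 6.36 with Dasatinib and 7.31, 5.63, 7.3 and 8.0 with DMSO. Both Dasatinib arrays were above their DMSO arrays and Dactolisib lay on them, a difference of -0.85 ± 0.11 within sets. Inflammatory cytokine and NF-kB genes had a median of 0.02 over 58. Il12a, a subunit of interleukin 12, was 7.15 and 7.61 against 4.76 and 7.07 (0.86 ± 0.22), and Il6 was -0.48 ± 0.14 with overlapping arrays.

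**Figure D5:**
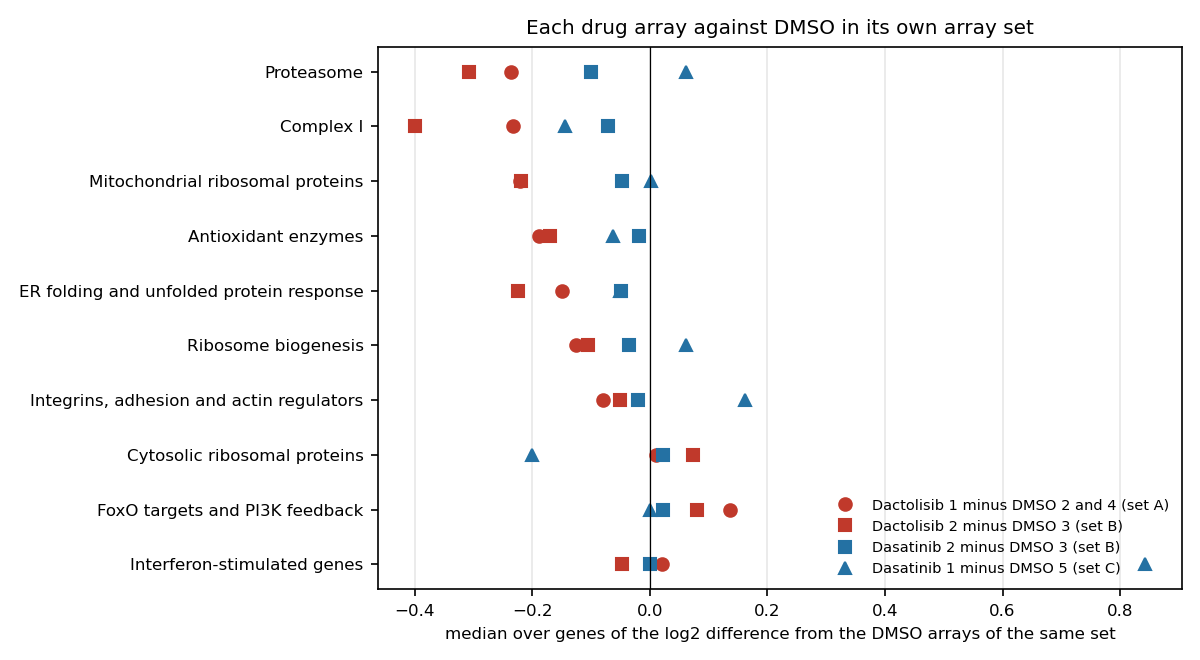
Median log2 difference between each drug array and the DMSO of the same set over the genes of 10 lists; red is Dactolisib, blue Dasatinib, and marker shape the array set. For the proteasome both Dactolisib arrays lie at -0.24 and -0.31 and the Dasatinib arrays at 0.06 and -0.1, while the interferon-stimulated genes stand at 0.84 on Dasatinib 1 alone.

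Read against the DMSO arrays of the same set, the lists were arranged in different ways. The proteasome median was -0.24 on Dactolisib 1 and -0.31 on Dactolisib 2, against 0.06 on Dasatinib 1 and -0.1 on Dasatinib 2. For mitochondrial ribosomal proteins the 4 values were -0.22, -0.22, 0.0 and -0.05, and for complex I they were -0.23, -0.4, -0.15 and -0.07, so that both Dasatinib arrays also lay below DMSO there. Dasatinib 1 was about as low as Dactolisib 1 for complexes II to V (-0.2, -0.27, -0.17 and -0.04), the TCA cycle (-0.17, -0.15, -0.15 and -0.03) and the tRNA synthetases (-0.15, -0.24, -0.13 and -0.06). For interferon-stimulated genes (0.02, -0.05, 0.84 and 0.0) and ERK feedback genes (0.05, 0.0, 0.24 and -0.01) only Dasatinib 1 lay apart. For integrin and adhesion genes the largest of the 4 was instead on Dasatinib 1, at 0.16, with -0.08, -0.05 and -0.02 on the others. Each of these values rests on 1 drug array and 1 or 2 DMSO arrays, and no test was made of them.

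Among the genes on which Dasatinib lay further from DMSO, biglycan (Bgn), a matrix proteoglycan, was 7.18 and 5.57 with Dactolisib, 7.28 and 4.79 with Dasatinib, and 6.8, 5.37, 7.06 and 8.09 with DMSO. Each Dasatinib array was below its DMSO array, and the difference was 0.88 ± 0.13 within sets and 0.34 ± 1.08 without. Ociad2 was 5.71 and 5.3 against 5.21 and 4.54, with DMSO at 5.24 to 6.21 (0.8 ± 0.12). Cpne8, a calcium-dependent membrane-binding copine, was 5.76 and 5.33 against 5.38 and 4.38 (0.83 ± 0.12), but its other probe set gave -0.47. Stroma markers, of which Bgn is one, lay in the same direction. Over 26 fibroblast and stroma genes the median was 0.21, with 11 higher in both estimates and 2 lower (42.3% and 7.69%, against 27.6% and 32.3% of all genes), but it was 0.09 without a block, 0.03 without Dasatinib 1 or DMSO 5 and 0.61 without Dasatinib 2. Their part in the Bgn difference was not tested.

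The other named genes had diverse roles. Hspbap1, a partner of a small heat shock protein, was 8.39 and 8.35 with Dactolisib, 6.92 and 7.54 with Dasatinib and 6.93 to 7.48 with DMSO (0.85 ± 0.1), with Dactolisib above every other array. Arrdc2, an alpha-arrestin, was 7.25 and 7.56 against 6.23 and 6.7 (0.81 ± 0.11), Fam221a 8.31 and 8.61 against 6.81 and 7.72 (0.87 ± 0.12), and Inpp5a, an inositol phosphate phosphatase, 8.31 and 8.27 against 7.43 and 7.72 (0.61 ± 0.1). Trim33, a ubiquitin ligase of the TGF-beta pathway, was 9.2 and 9.19 against 8.59 and 8.71 (0.47 ± 0.1), and the scaffold Ahnak2 7.3 and 6.97 against 6.39 and 6.54 (0.6 ± 0.13). For all 5 both Dactolisib arrays were above both Dasatinib arrays.

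On the lower side, Tmpo, a protein of the nuclear lamina, was 5.61 and 4.83 with Dactolisib, 8.24 and 5.92 with Dasatinib and 6.72, 5.9, 6.54 and 8.24 with DMSO (-1.06 ± 0.11). Each Dasatinib array equaled its DMSO array closely. Serpinb2, an inhibitor of plasminogen activators, was 7.78 and 8.17 against 10.89 and 9.0, with DMSO at 8.34, 8.65, 8.5 and 10.62 (-0.87 ± 0.11). The palmitoyltransferase Zdhhc9 (-1.06 ± 0.12), the peroxisomal hydrolase Nudt7 (-0.83 ± 0.1), the dioxygenase Alkbh4 (-0.83 ± 0.1) and the chloride channel protein Clcc1 (-0.81 ± 0.1) had drug arrays that did not overlap, although 1 of the 3 other Clcc1 probe sets was at 0.06. Chsy1, which builds chondroitin sulfate (-1.22 ± 0.16), and Nbeal2, needed for granules of platelets and neutrophils (-0.97 ± 0.12), had overlapping arrays. Without a block those 2 gave -0.6 ± 0.5 and -0.28 ± 0.53.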

How the data were processed

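The authors deposited log2 signals of 45101 probe sets of an Affymetrix whole-genome mouse array for 8 arrays. Their methods name the oligo package for calibration and limma with an unpaired t-test, whereas the submitters' notes name MAS5, and RNeasy and Trizol are each named for the extraction, so how the log2 values were summarized is not settled. Values were used as deposited, and array titles gave the groups. The 64 control probe sets were left out and the upper 66.7% by mean signal (30024) were tested. Genes were joined through the platform annotation, with 34945 probe sets of 1 gene, 932 of several and 9160 of none.

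Differences were fitted with limma 3.58.1 in R 4.3.3 on all 8 arrays (empirical Bayes, two-sided, Benjamini-Hochberg over all tested probe sets), by treatment alone, which is the design of record, and with the array set as a block (5 and 3 residual degrees of freedom). The 3 sets were found from these values by average linkage on 1 minus the correlation, and were the same without the marker genes. The p-values within sets treat the sets as known. A gene in a list is its brightest single-gene probe set. The members, lists and naming rule were chosen with earlier results of these data known. Named are the 15 genes each way with the lowest p within sets that had 1 sign in both fits and both estimates, the 5 each way with the lowest p without a block, and up to 4 per list. Predicted genes without a given name were left out of the first 2 groups. The scripts were tested on simulated data. Alternatives covered the scaling, an offset, the filter, the prior, array weights, covariates, blocks, the methods' t-test and each array left out. Array data give no read depth.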

Additional observations from a re-analysis of the deposited data

Results flagged for a closer look

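Among the 37 named genes, 5 had 1 of the 4 DMSO arrays set apart, judged by its gap to the nearest other array as a share of the DMSO range. DMSO 5 stood apart on Snhg12 (0.879), Hspbap1 (0.985), Snhg1 (0.885) and Serpinb2 (0.866), and DMSO 2 on Dck (0.928). Chance alone flags about 1 in 20 groups of this size if the arrays are independent draws from 1 population. The DMSO arrays fall into 3 sets, so that rate need not apply here. DMSO 5 is the DMSO array of set C, with the highest epithelial markers, and its part in these values was not tested. On Hspbap1 and Dck both Dactolisib arrays lay outside the DMSO range with that array included.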

How the results depend on the processing

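Without a block, the count at an adjusted p under 0.05 stayed 0 in both directions except without Dasatinib 2, where 4 probe sets were lower (0 to 4 over the arrays left out). Within array sets the counts of 0 became 75 higher and 165 lower when 32 was added before log2, 58 and 147 in the upper 33.3% by mean signal, 77 and 204 under a robust prior with a trend. Leaving out single arrays gave 0 to 408 higher and 0 to 710 lower there, the highest without Dasatinib 2. Without that array no set holds both drugs. The cause of the higher counts was not tested. In the pair, 139 probe sets over 1.5 fold higher and 439 lower became 45 and 116 with the offset of 32, and 86 and 289 in the upper 33.3%, where fewer are tested. With the replicate block on the 4 drug arrays the counts were 0 and 0 (393 and 869 at an unadjusted p under 0.05, limma). Replicate numbers mark no stated pairing, and both pairs correlated at 0.559 in their deviations, which equal groups of 2 force to be the same. The methods' t-test had 389 higher and 416 lower at an unadjusted p under 0.05, and 0 after adjustment. Of the 37 genes with the lowest p, none changed sign under the alternatives of a fit that named it. Those named within sets had been chosen for 1 sign in both fits and both estimates. Genes named only from lists were not recomputed, and some differed in sign between the fits, such as Csk (-0.51 within sets, 0.06 without a block). With the offset, dim genes shrank, Foxp1 to 0.62 and E2f2 to -0.8. Of 623 recomputed list medians within sets, 513 moved by less than the residual spread of the list's mean signal, and 110 moved by at least that much. That spread is what remains between arrays once treatment and array set are fitted, with 3 residual degrees of freedom.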
